A study of Homo sapiens with 11 samples.

Results

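The immediate early genes described here were FOS, FOSB, JUN, JUNB, EGR1, KLF6, DUSP1, DUSP2, IER2 and ZFP36, 10 of the 15147 genes listed in the deposited RNA-seq tables of ARP1, a human cell line from multiple myeloma whose immunoglobulin type is IgA kappa. They were chosen by name, with earlier results of these libraries known, so that their levels and differences stand as descriptions without a p-value of their own. The libraries fell into 4 groups, compared in pairs: cells infected with a PCDH lentivirus that carries the PHF19 open reading frame (PHF19 overexpression, n = 2), cells infected with the empty PCDH lentivirus (n = 3), cells with an shRNA against PHF19 (shRNA, n = 3) and cells with a scramble shRNA (n = 3). The virus was packaged in HEK293T, a human embryonic kidney line. PHF19 works with Polycomb repressive complex 2, which methylates histone H3. The labels say that the PHF19 overexpressing cells were sorted and name no sort for the other groups. Sorting therefore cannot be told apart from overexpression in any value of that comparison. The sample descriptions end in F for the overexpression libraries and in S for the empty vector ones, without explanation. The label texts of the shRNA and scramble libraries repeat the overexpression wording, give no hairpin and do not say how the shRNA entered the cells. No label says that replicates were separate cultures, so the p-values given for other genes measure only the spread between these libraries, which may be technical.

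Immediate early genes are transcribed within minutes of a signal such as a growth factor, calcium, stress or mechanical disturbance of the cells, without the need for new protein. Their promoters are known targets of serum response factor (SRF) with ternary complex factors, which bind CArG boxes, and of CREB, which binds cAMP response elements (CRE), both acting downstream of MAP kinases. FOS and JUN family proteins pair to form AP-1, EGR1 and KLF6 are zinc finger transcription factors, and DUSP1 and DUSP2 are phosphatases that switch MAP kinases off. IER2 is a nuclear protein with a role in transcription, and ZFP36 (tristetraprolin) binds AU-rich elements in short-lived mRNAs, among them mRNAs of immediate early genes, and triggers their decay. In myeloma cells AP-1 and EGR1 have been linked to the response to drugs such as proteasome inhibitors.

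All 10 genes were listed in both tables and passed the filter on low values. PHF19 itself was at 227 and 213 in overexpression libraries, against 111, 119 and 115 in empty vector libraries, and at 75.2, 103 and 108 in shRNA libraries, against 113, 152 and 123 in scramble libraries. Values are length-normalised abundances of FPKM type, a unit scaled by gene length and library size. Plasma cell markers SDC1, IRF4, PRDM1 and XBP1 were high in every library. Under knockdown the 10 listed plasma cell markers summed to 822 to 1353 in shRNA libraries, against 1402 to 1524 in scramble libraries. Of the 9 tested there, 0 were called (limma, adjusted), against 5.51% of all genes, and 3 were lower without overlap, against 13.0%. Their median log2 difference was -0.25, against 0.03 over all genes tested, and their part in the immediate early genes was not tested. Of the 9 plasma cell markers in the overexpression table, TNFRSF17, MZB1 and FKBP11 were listed at 0 in some libraries, and 762 and 797 genes were listed at 0 in overexpression libraries, against 944 to 961 in empty vector libraries. Over the genes never at 0, the overexpression libraries correlated with each other at 0.987 (Pearson, across genes, which are not independent replicates), and over all genes tested at 0.831, where the pairs of this table ranged from 0.760 to 0.831. Over the genes never at 0, empty vector replicate 5 correlated with the other empty vector replicates at 0.943 and 0.952, below its 0.965 and 0.964 with the overexpression libraries. In the knockdown table, over all genes tested, shRNA replicate 1 stood apart, at 0.953 to 0.973 with every other library, against 0.970 to 0.993 for all other pairs.

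The genes shared a compact structure that the choice by name did not use. In GENCODE 29 all 10 had at most 4 exons, against 18.1% of the 9444 other tested genes with a value, whose median was 9 exons. JUN, JUNB and IER2 had 1 exon, as did 1.86% of the other genes. All 10 spanned fewer than 10000 bases, against 20.6% of the other genes, and FOSB, JUNB, IER2 and ZFP36 lay on chromosome 19. The promoter windows of RefSeq (GRCh38.p14), from 250 bases before to 50 bases after each transcription start, were searched on both strands for short motifs. The CRE core TGACG stood in 7 of the 10 windows and in 24.5% of 34943 windows of all genes. The windows of KLF6, DUSP2 and ZFP36 did not hold it. The full CRE TGACGTCA, which contains the core on both strands, stood in DUSP1 alone among the 10 and in 1.84% of all windows, and the CArG box stood in EGR1 alone, in 2 copies, and in 1.30% of all windows. The TATA letters TATAAA stood in FOS, FOSB, JUNB and DUSP1, and in 11.6% of all windows. The AP-1 site TGACTCA was in 0 of the 10 and in 4.96% of all windows. A match describes letters in the window and is not evidence of binding. Bases outside the windows and sites with other letters were not searched, so a gene without a match may still hold such a site. The 250 bases before the start are shown for EGR1 (chr5:138465229-138465478, plus strand), where capitals mark CArG boxes and CRE cores, and for DUSP1 (chr5:172771196-172771445, minus strand), where capitals mark the CRE and CRE cores. These were the genes with the most CRE cores.
EGR1 promoter: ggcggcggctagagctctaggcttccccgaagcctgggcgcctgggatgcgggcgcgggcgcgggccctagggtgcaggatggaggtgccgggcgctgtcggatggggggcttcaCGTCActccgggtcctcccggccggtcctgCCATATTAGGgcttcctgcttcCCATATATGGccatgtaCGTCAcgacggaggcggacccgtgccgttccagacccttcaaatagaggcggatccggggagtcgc
DUSP1 promoter: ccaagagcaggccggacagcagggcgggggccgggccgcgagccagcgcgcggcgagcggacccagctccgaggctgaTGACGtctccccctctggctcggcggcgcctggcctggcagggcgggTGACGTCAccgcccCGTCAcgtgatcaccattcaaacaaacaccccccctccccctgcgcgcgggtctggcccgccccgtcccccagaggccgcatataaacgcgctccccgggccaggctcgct
In EGR1 the CArG boxes began at positions -105 and -83 and the CRE cores at -135 and -66, counted with -1 as the base before the start. In DUSP1 the CRE ran from -125 to -118.

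The stretch around the CRE core, in capitals, is shown for the AP-1 subunits and IER2 so that its flanks can be compared. The regions were chr14:75278752-75278780 (plus) for FOS, chr19:45467924-45467952 (plus) for FOSB, chr1:58784154-58784182 (minus) for JUN, chr19:12791337-12791365 (plus) for JUNB and chr19:13150259-13150287 (plus) for IER2.
FOS: tggttgagcccgTGACGtttacactcatt
FOSB: gcaaggggcgggTGACGtaagcagggggg
JUN: gagtctccatggTGACGggcgggcccgcc
JUNB: gcttcctgacagTGACGcgagccgcctcc
IER2: cacccccgccccCGTCAcgccaccatcga
The core began at -64 in FOS and -60 in FOSB, close to the start, and farther upstream in JUN (-123), JUNB (-137) and IER2 (-140). It read TGACG on the gene's own strand in the AP-1 genes and on the opposite strand in IER2.

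**Figure D1:**
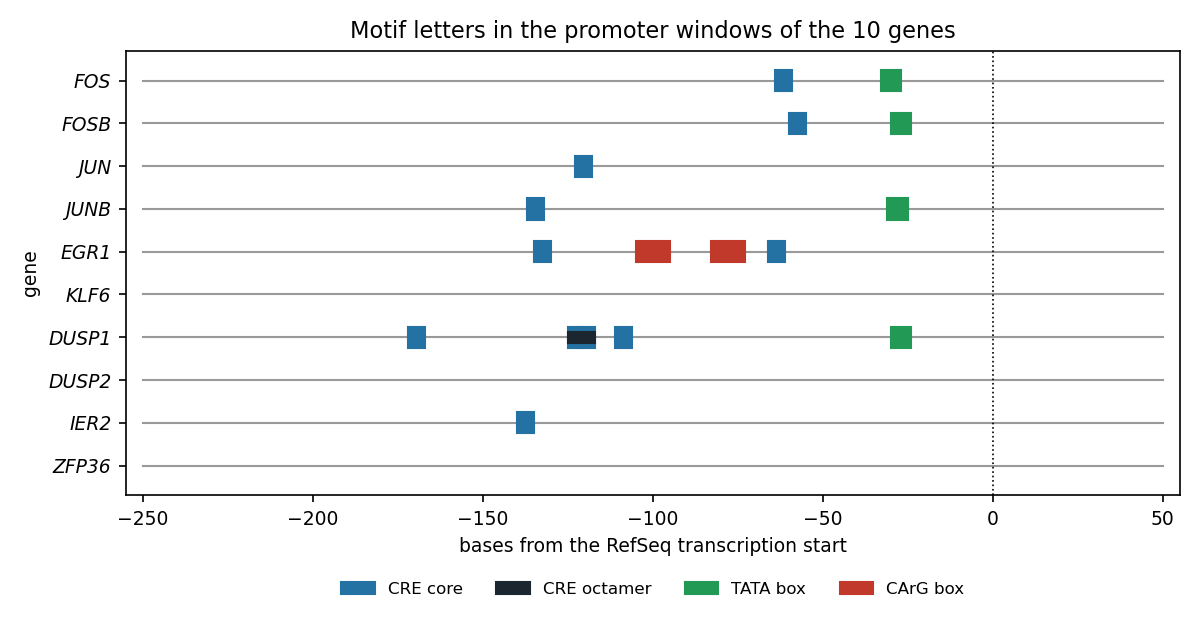
Motif letters in the promoter windows of the 10 genes, drawn to scale by distance in bases from the RefSeq transcription start (dotted line). Coloured boxes are the CRE core, the full CRE, the TATA letters and the CArG box. The CRE core lies in 7 windows, and the CArG box in that of EGR1 alone.

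The 3′ untranslated regions (UTRs) were searched for the AU-rich letters TATTTAT, the kind of site that ZFP36 binds. They stood in 7 of the 10 UTRs, against 33.7% of the other tested genes, and were not found in JUNB, EGR1 and IER2. DUSP1 and ZFP36 held 3 copies each and FOS held 2, while 20.1%, 21.4% and 22.8% of genes with a UTR within 20% of their length held any. KLF6 has the longest UTR of the 10 (3543 bases), and 60.8% of genes of similar length hold these letters. A stretch of 30 bases is shown for the genes with more than a single copy, with the AU-rich letters in capitals.
FOS: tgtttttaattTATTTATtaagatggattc
DUSP1: gggctggtcctTATTTATttaacttcaccc
ZFP36: aatgggcccttTATTTATgacgactttatt
The FOS and DUSP1 stretches ran on with further A and T letters and held 2 overlapping copies of ATTTA each, and the ZFP36 stretch held 1.

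Overexpression was compared with empty vector to ask which transcripts differ when PHF19 is raised. FOS, FOSB, JUN, EGR1 and DUSP1 were many times higher in both overexpression libraries than in any empty vector library. JUNB, IER2 and ZFP36 were also higher, with ratios of the means of 1.76, 1.81 and 1.61, and KLF6 and DUSP2 overlapped between the groups. A difference of at least 2 on the log2 scale was found in 309 of the 10279 tested genes (3.01%), nearly all of them listed at 0 in some library, where the size depends on the pseudocount. Among the 8665 tested genes never listed at 0 there were 8 such genes (0.0923%), and FOS, DUSP1, JUN, FOSB and EGR1 were, in this order, the 5 largest of them. The other 3, named after their values were seen, were ANXA1, RRP15 and CCDC57. Differences are of mean log2(value + 1), overexpression minus empty vector, with the standard error (SE) of limma, and understate the change of low genes. In bulk RNA, fewer cells that express a gene and less RNA per cell cannot be told apart.

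Of the AP-1 subunits, FOS was at 53.8 and 58.7 in overexpression libraries, against 3.26, 0.501 and 2.0 in empty vector libraries. The ratio of the means was 29.3 and the log2 difference 4.42 (SE 0.49), and the lower overexpression library was 16.5 times the highest empty vector library. FOSB, its close relative, was at 20.1 and 16.0 in overexpression libraries, against 3.20, 0.965 and 1.61 in empty vector libraries, a log2 difference of 2.77 (SE 0.38). Both genes were low in every empty vector library, and their overexpression libraries lay close together. JUN was at 42.4 and 45.6 in overexpression libraries, against 3.21, 2.66 and 11.5 in empty vector libraries (log2 difference 2.96, SE 0.61). Empty vector replicate 5 was the high library of its group for JUN, and the lower overexpression library was still 3.68 times as high. JUNB was at 65.9 and 72.0 in overexpression libraries, against 32.5, 38.5 and 46.2 in empty vector libraries (log2 difference 0.82, SE 0.18). JUNB was also expressed in empty vector cells, and the groups were separate but near each other.

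The summed value of these AP-1 genes was 182 and 192 in overexpression libraries, against 42.2, 42.6 and 61.3 in empty vector libraries. Since values are per length, their shares can be set side by side. FOS and FOSB together made up 40.6% and 38.8% of the sum in overexpression libraries, against 15.3%, 3.44% and 5.89% in empty vector libraries. JUNB made up 36.2% and 37.4% in overexpression libraries, against 77.1%, 90.3% and 75.3% in empty vector libraries. Within this sum, the transcripts of empty vector cells were thus mostly JUNB. Those of overexpression cells were spread over JUNB, FOS, JUN and, least, FOSB. Other AP-1 genes, such as JUND, described further on, are not in the sum, so these are not shares of all AP-1 transcripts.

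EGR1, a zinc finger activator, was at 21.6 and 22.1 in overexpression libraries, against 1.77, 2.48 and 3.81 in empty vector libraries. The log2 difference was 2.67 (SE 0.27), and the ratio of the means was 8.13. Its overexpression libraries differed by 1.02 times, the least of the 9 genes never at 0, and its empty vector libraries by 2.15 times. KLF6, another zinc finger factor, was at 69.8 and 67.3 in overexpression libraries, against 98.5, 45.5 and 59.0 in empty vector libraries. Its groups overlapped, with the highest and the lowest values both in empty vector libraries, and the log2 difference was 0.09 (SE 0.36).

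DUSP1, a phosphatase of p38, JNK and ERK, was at 46.2 and 50.1 in overexpression libraries, against 6.76, 2.86 and 5.94 in empty vector libraries. The ratio of the means was 9.28 and the log2 difference 3.05 (SE 0.35). DUSP2, a nuclear phosphatase found mainly in blood cells, was listed at 0 in overexpression replicate 1 and was at 10.2 in replicate 2, against 6.43, 5.88 and 2.63 in empty vector libraries. The overexpression libraries lay on both sides of the empty vector libraries, and no fold is given because of the 0. IER2 was at 64.6 and 71.5 in overexpression libraries, against 34.0, 34.4 and 44.6 in empty vector libraries (log2 difference 0.85, SE 0.17). ZFP36 was at 39.9 and 46.5 in overexpression libraries, against 24.5, 19.9 and 35.9 in empty vector libraries (log2 difference 0.71, SE 0.28). Both were separate between groups, ZFP36 by a narrow margin.

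**Figure D2:**
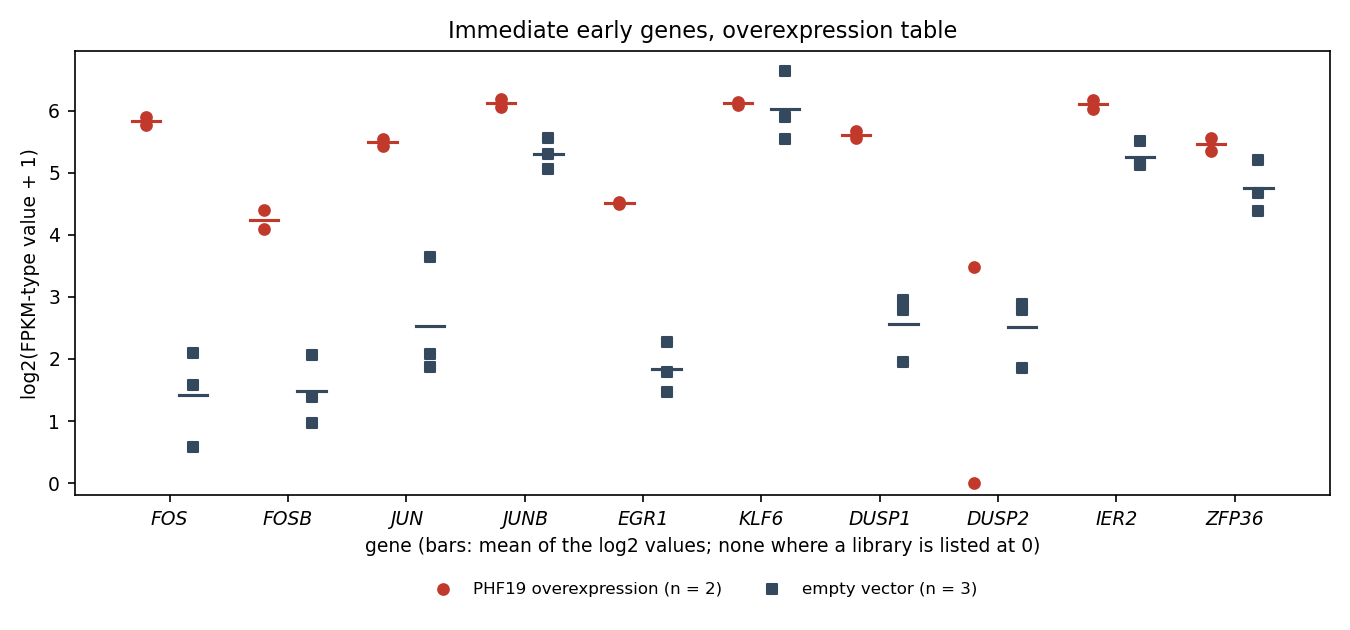
Log2(value + 1) of the 10 genes in each library of the overexpression table, with overexpression (circles, n = 2) left of empty vector (squares, n = 3) and bars at group means. FOS, FOSB, JUN, EGR1 and DUSP1 are far apart, KLF6 and DUSP2 overlap, and DUSP2 is listed at 0 in an overexpression library.

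In 8 of the 10 genes both overexpression libraries were above all empty vector libraries, as in 23.1% of the 10279 genes tested. The limma test, adjusted over all genes tested, called EGR1 alone, 1 of 10 against a background of 0.914% of genes. Since these genes were chosen with this comparison known, nothing is read from either count. EGR1 was no longer called without overexpression replicate 1, overexpression replicate 2, empty vector replicate 3 or empty vector replicate 4, nor with no filter, a filter at 5, pseudocounts of 0.1 or 0.5, or genes listed at 0 left out. Without empty vector replicate 5 the calls were JUN, EGR1 and IER2, in a fit that called 350 of 10063 genes. Without empty vector replicate 4 they were FOS and DUSP1, in a fit that called 120 of 10098 genes. The median log2 difference of all 10 was 1.76, against 0.09 over all genes tested, and without DUSP2, the gene listed at 0, it was 2.67, against 0.07 over all tested genes never at 0. The authors' deposited table, whose test has no stated method, ranked EGR1, FOSB and DUSP1 at places 1, 2 and 3, FOS at place 5 and JUN at place 23 of 11062 genes by p-value. JUNB, IER2 and ZFP36 stood at places 232, 260 and 508 in the authors' deposited table, and DUSP2 and KLF6 at 918 and 1604. For knockdown the authors' deposited table placed them between 1168 for KLF6 and 13686 for FOSB of 14458 rows. The authors' p-value was under 0.05 for 12.9% of genes under overexpression and for 61.2% under knockdown. Nothing is read from these places either, since the genes were chosen with earlier results of these libraries known.

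Within the empty vector group the genes did not rise and fall together in a single order. Replicate 3 was the highest for FOS, FOSB, KLF6, DUSP1 and DUSP2, and replicate 5 for JUN, JUNB, EGR1, IER2 and ZFP36. Empty vector values differed by up to 6.52 times between libraries for FOS and 4.33 times for JUN, but only 1.31 times for IER2 and 1.42 times for JUNB. The overexpression libraries differed by at most 1.26 times in the 9 genes never at 0, with FOSB the widest.

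Markers of other cells and of cell state were read beside these values. The proliferation marker MKI67 was at 18.6 and 17.2 in overexpression libraries, against 36.7, 33.3 and 38.8 in empty vector libraries (log2 difference -0.98, SE 0.12, limma adjusted p = 0.0817). Of the 6 proliferation genes 0 were called, against 0.914% of all genes tested. At an unadjusted p under 0.05, 2 were lower, against 3.65% of all genes, and CCNB1 and AURKA were higher by any size. Their median log2 difference was -0.09, and they summed to 430 to 453 in overexpression libraries, against 474 to 481 in empty vector libraries. The part of this difference in the immediate early genes was not tested. Of 6 monocyte markers, LYZ, S100A8 and S100A9 were in the overexpression table, and they summed to 1.20 and 57.6 in overexpression replicates 1 and 2, against 0 to 0.0572 in empty vector libraries. CD14, CSF1R and FCGR3A are not analysed here. Between these overexpression replicates the 9 immediate early genes never at 0 differed by 1.02 times (EGR1) to 1.26 times (FOSB, higher in replicate 1), and DUSP2 was at 0 in replicate 1 and 10.2 in replicate 2. The part of the monocyte markers in these values was not tested. The heat shock genes that rise with handling of cells had a median log2 difference of 0.06 over 12 tested genes. The 13 listed summed to 2775 to 2881 in overexpression libraries. Empty vector libraries differed widely among themselves, from 1909 to 4270. Of the 12, 0 were called (limma, adjusted), against 0.914% of all genes tested. At an unadjusted p under 0.05, 2 were higher, against 7.88% of all genes. The part of cell handling in the immediate early genes was not tested.

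The levels were also set beside all other libraries of the line, with the limit that the tables were normalised separately. Over the other 9 libraries FOS ranged between 0.420 and 3.26, FOSB between 0.50 and 3.20, JUN between 2.66 and 11.5, EGR1 between 1.77 and 9.87 and DUSP1 between 2.86 and 10.4. Both overexpression libraries were above these ranges, and also above those of JUNB and ZFP36. IER2 was not, since it reached 100.1 in an shRNA library, and KLF6 and DUSP2 were not.

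shRNA was compared with scramble to ask which transcripts differ when PHF19 is lowered. PHF19 itself had a ratio of the means of 0.738 and a log2 difference of -0.44 (SE 0.17). It was not called (limma adjusted p = 0.147), but was with the replicate number as a block (limma adjusted p = 0.0445). That pairing was taken from these same libraries and is stated by no label. The 10 immediate early genes showed no large difference between these groups: the log2 differences, shRNA minus scramble, lay between -0.73 for FOS and 0.22 for IER2. In 9 genes the mean log2 value was lower in shRNA libraries, as in 45.6% of the 10900 genes tested. The groups were separate only for KLF6 and DUSP2, both lower in shRNA libraries, as in 13.0% of genes tested. The limma test, adjusted over all genes tested, called 0 of the 10 against a background of 5.51% of genes, and 3, all lower, had an unadjusted p under 0.05, against 8.74% of genes that were lower. With the replicate number as a block FOS alone was called, as lower, against a background of 3.68% lower. Without shRNA replicate 1, and with no block, FOS alone was also called lower, as were 129 of the 11014 genes tested there. FOS passed the filter through the scramble libraries, which all reached 1, while in the shRNA group only replicate 1 did. A filter at 5 left it out.

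FOS was at 2.42, 0.420 and 0.810 in shRNA libraries, against 2.92, 1.96 and 2.44 in scramble libraries (log2 difference -0.73, SE 0.29). shRNA replicate 1 lay within the scramble range and the other 2 below it, and the log2 differences within same-numbered pairs were -0.20, -1.06 and -0.93. These FOS values are close to the low end of the scale, where the pseudocount of 1 compresses differences. FOSB was at 2.32, 1.32 and 0.50 in shRNA libraries, against 1.24, 1.36 and 1.45 in scramble libraries. JUN was at 8.61, 5.62 and 5.02 in shRNA libraries, against 11.5, 4.53 and 5.37 in scramble libraries. Both overlapped, and their shRNA libraries spread at least as widely as the difference. JUNB was at 37.8, 56.6 and 57.4 in shRNA libraries, against 52.2, 65.2 and 63.7 in scramble libraries (log2 difference -0.27, SE 0.17). JUNB made up 73.9% to 90.1% of the sum of FOS, FOSB, JUN and JUNB in shRNA libraries, against 77.0% to 89.3% in scramble libraries. It was thus the main transcript of this sum in both groups, with JUND and other AP-1 genes left out.

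EGR1 was at 5.66, 5.63 and 6.12 in shRNA libraries, against 5.68, 8.69 and 9.87 in scramble libraries (log2 difference -0.39, SE 0.19). The shRNA libraries lay together at the lowest scramble value. KLF6 was at 24.7, 31.9 and 30.8 in shRNA libraries, against 35.3, 35.5 and 40.8 in scramble libraries (log2 difference -0.35, SE 0.14). DUSP2 was at 7.61, 8.49 and 8.15 in shRNA libraries, against 13.3, 11.7 and 8.62 in scramble libraries (log2 difference -0.41, SE 0.17). In KLF6 and DUSP2 all shRNA libraries were below all scramble libraries, DUSP2 by a narrow margin against scramble replicate 3. DUSP1 was at 6.97, 6.03 and 6.83 in shRNA libraries, against 10.4, 6.49 and 5.43 in scramble libraries, and its groups overlapped.

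IER2 was at 60.5, 88.1 and 100.1 in shRNA libraries, against 42.8, 87.1 and 89.8 in scramble libraries (log2 difference 0.22, SE 0.29). ZFP36 was at 20.9, 27.2 and 28.6 in shRNA libraries, against 20.5, 34.1 and 35.4 in scramble libraries (log2 difference -0.20, SE 0.21). In both genes, and in JUNB and KLF6, the libraries numbered 1 were the lowest of their group, and in FOS, JUN and DUSP1 the highest. Within the same-numbered pairs FOS, JUNB, EGR1, KLF6 and DUSP2 were lower in the shRNA library of all 3 pairs, as were 24.2% of genes, and IER2 was higher in all 3, as were 31.2% of genes. The median log2 difference of the 10 was -0.23, against 0.03 over all genes tested. Of 8 markers of epithelial and embryonic kidney cells, 3 were listed under knockdown, and KRT18 was at 4.93, 4.79 and 5.51 in shRNA libraries, against 9.32, 11.1 and 13.0 in scramble libraries (limma adjusted p = 0.0137). KRT8, the other marker tested, averaged 1.30 in shRNA libraries and 1.20 in scramble libraries and was not called. The 3 listed markers summed to 5.76 to 7.26 in shRNA libraries, against 9.87 to 14.6 in scramble libraries, and their part in the values of the immediate early genes was not tested.

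**Figure D3:**
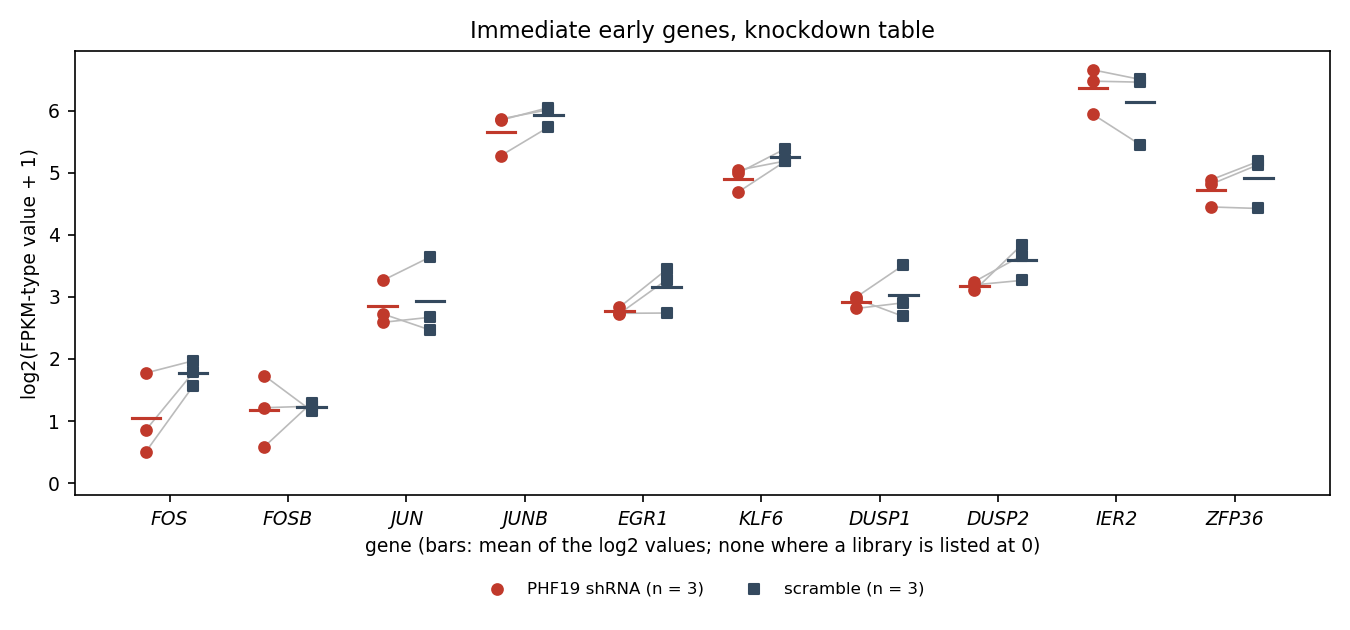
Log2(value + 1) of the 10 genes in each library of the knockdown table, with shRNA (circles, n = 3) left of scramble (squares, n = 3), bars at group means and grey lines joining libraries with equal replicate numbers. The groups overlap for all genes but KLF6 and DUSP2.

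Set side by side, the comparisons use separate tables and share no library, and no difference between them was tested. FOS had a log2 difference of 4.42 under overexpression and -0.73 under knockdown, EGR1 2.67 and -0.39, and JUNB 0.82 and -0.27. DUSP1, JUN and FOSB, with 3.05, 2.96 and 2.77 under overexpression, had -0.11, -0.07 and -0.05 under knockdown. The knockdown groups of FOS, EGR1, JUNB, DUSP1, JUN and FOSB all overlapped. IER2 had 0.85 under overexpression and 0.22, also with overlap, under knockdown. KLF6 and DUSP2 were separate and lower under knockdown, with overlap under overexpression.

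**Figure D4:**
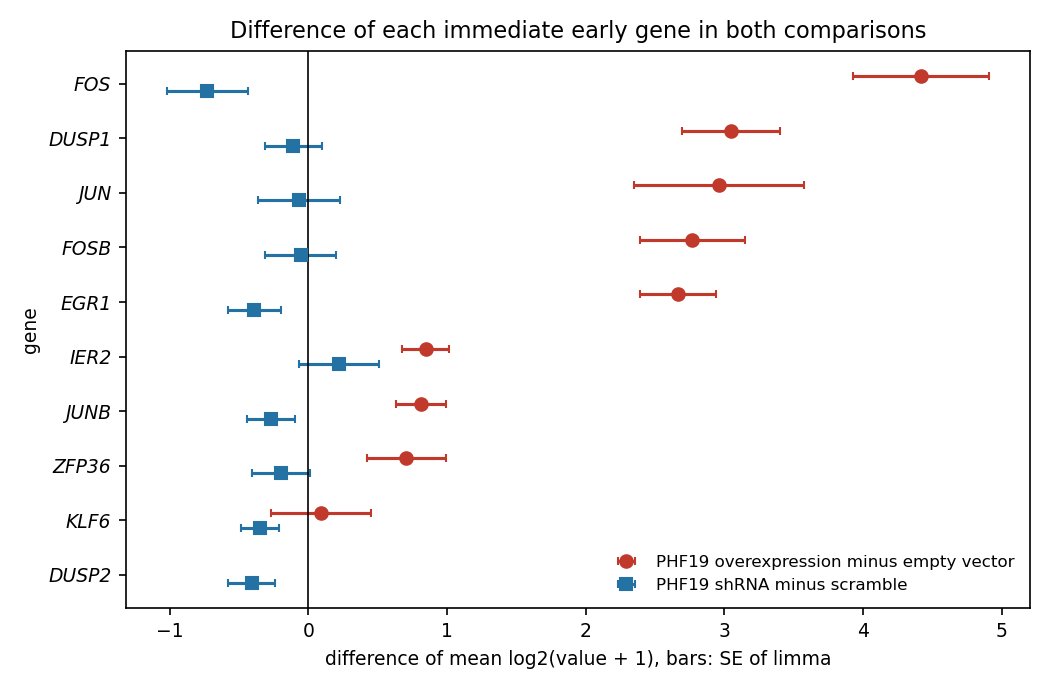
Difference of mean log2(value + 1) of each gene, overexpression minus empty vector (circles) above shRNA minus scramble (squares), with limma SE as bars. The overexpression differences reach 4.42 for FOS, while the knockdown differences lie between -0.73 and 0.22. No overexpression value is drawn for DUSP2, which is listed at 0 in a library.

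The wider family was read from 48 other immediate early genes, of which 30 were tested under overexpression and 33 under knockdown. Under overexpression 1 was called higher and 0 lower (limma, adjusted), against backgrounds of 0.613% and 0.302%, and 7 were higher and 1 lower at an unadjusted p under 0.05, against 7.88% and 3.65%. The median log2 difference was 0.44, against 0.09 over all genes tested, and 14 were separate and higher, against 23.1% of all genes. The called gene was ZFP36L2, a relative of ZFP36 that also triggers decay of AU-rich mRNAs. It was at 123 and 112 in overexpression libraries, against 54.5, 49.8 and 49.8 in empty vector libraries (log2 difference 1.18, SE 0.11, limma adjusted p = 0.0314). That call was lost under quantile normalisation, with genes listed at 0 left out, and without any of overexpression replicate 1, overexpression replicate 2, empty vector replicate 3 or empty vector replicate 4. ATF3, a stress-induced partner of JUN proteins, was at 23.9 and 23.3 in overexpression libraries, against 3.72, 6.28 and 13.5 in empty vector libraries (log2 difference 1.63, SE 0.52, limma adjusted p = 0.388). JUND, the remaining JUN family member, was at 37.8 and 42.2 in overexpression libraries, against 13.0, 15.5 and 23.9 in empty vector libraries (log2 difference 1.19, SE 0.28, limma adjusted p = 0.317). PPP1R15A (GADD34), which directs dephosphorylation of the translation factor eIF2 alpha, was at 67.4 and 71.8 in overexpression libraries, against 15.5, 20.9 and 64.2 in empty vector libraries (log2 difference 1.30, SE 0.67, limma adjusted p = 0.536). None of these passed the test, and the high empty vector library was replicate 5 in each. Without it 4 of the 29 tested were called: JUND, KLF10, PPP1R15A and ZFP36L2. That fit called 350 of 10063 genes.

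Under knockdown 4 of the 33 were called higher and 0 lower, against backgrounds of 4.24% and 1.28%, and the median log2 difference was -0.01. CEBPB, a leucine zipper factor, was at 45.7, 73.2 and 61.1 in shRNA libraries, against 18.0, 27.7 and 23.8 in scramble libraries (log2 difference 1.33, SE 0.20, limma adjusted p = 0.0113). ATF3 was at 9.74, 14.2 and 14.4 in shRNA libraries, against 3.76, 5.86 and 6.08 in scramble libraries (log2 difference 1.15, SE 0.20, limma adjusted p = 0.0178). PPP1R15A was at 38.1, 37.7 and 39.0 in shRNA libraries, against 21.7, 25.3 and 26.7 in scramble libraries (log2 difference 0.62, SE 0.12, limma adjusted p = 0.0228). ATF3, PPP1R15A and CEBPB are also known as genes of the integrated stress response. IER5L was at 7.83, 9.38 and 8.36 in shRNA libraries, against 4.34, 5.97 and 4.36 in scramble libraries (log2 difference 0.70, SE 0.16, limma adjusted p = 0.0354). ID2, an inhibitor of helix-loop-helix factors, was at 150.4, 60.7 and 56.8 in shRNA libraries, against 33.8, 50.4 and 45.1 in scramble libraries, and its log2 difference of 0.90 (SE 0.36) did not pass the test (limma adjusted p = 0.178). The high ID2 value was that of shRNA replicate 1, the library that stood apart. With the replicate block 6 of the 33 were called higher, against 8.20% of genes, and 3 lower. Without scramble replicate 1 none of the 33 was called, without scramble replicate 2 or shRNA replicate 3 CEBPB alone, and without scramble replicate 3 or shRNA replicate 2 ATF3 and CEBPB.

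**Figure D5:**
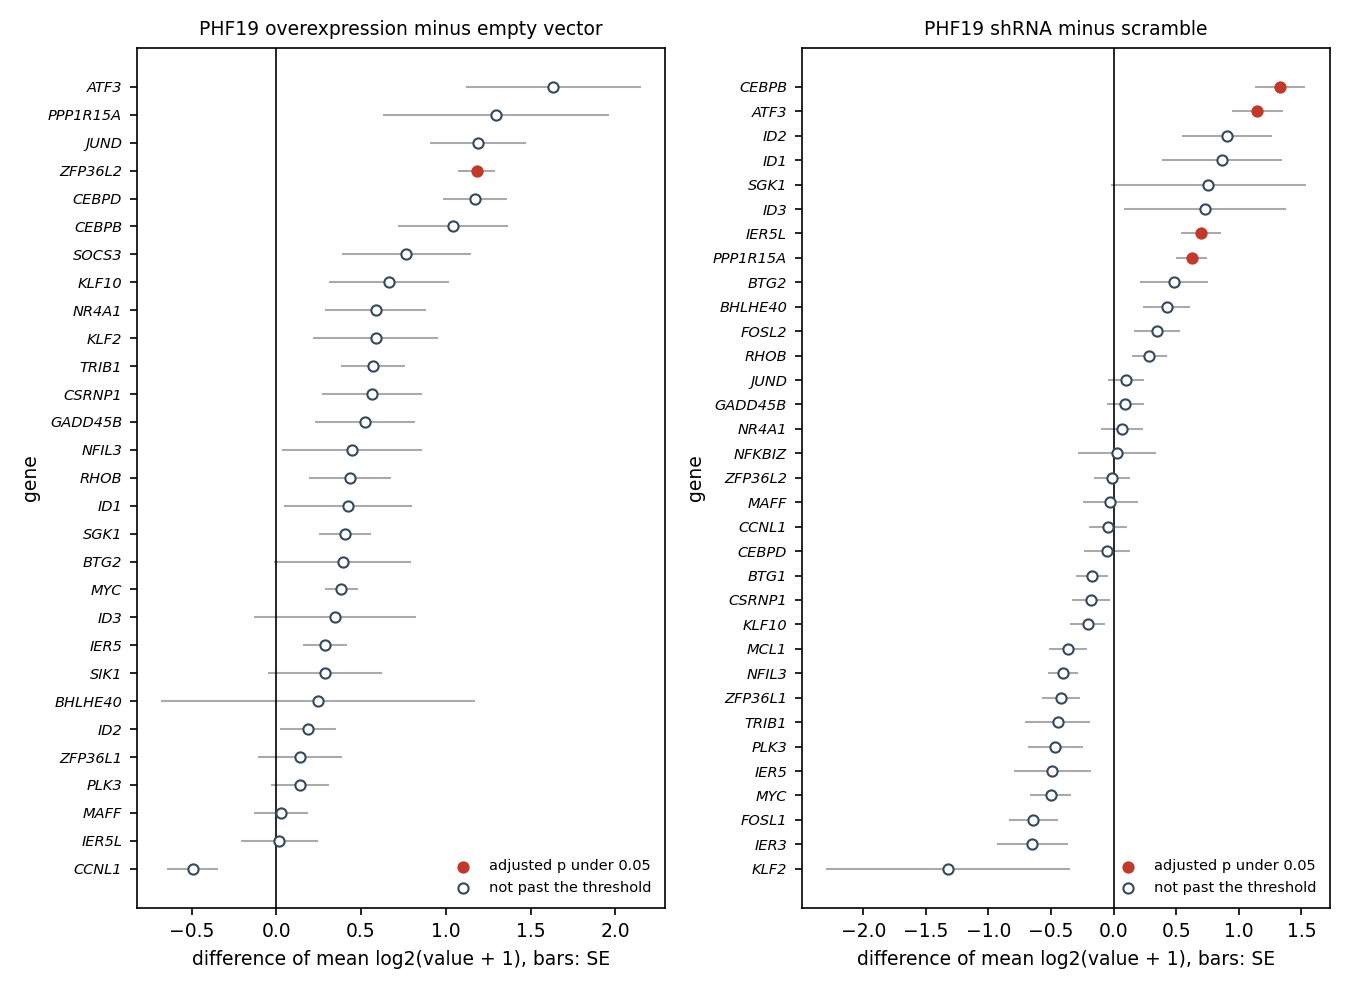
Difference of mean log2(value + 1) with limma SE for other immediate early genes never listed at 0, overexpression minus empty vector on the left and shRNA minus scramble on the right, filled where the adjusted p is under 0.05. ZFP36L2 is filled on the left, and CEBPB, ATF3, IER5L and PPP1R15A on the right.

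Transcripts of factors and kinases known to act upstream of these genes were read from lists. Of SRF, its cofactors, the ternary complex factors and the CREB family, 9 were tested in each comparison and 0 were called in either, with 1 at an unadjusted p under 0.05 in each. Over all genes tested, 0.914% were called under overexpression and 5.51% under knockdown, and 11.5% and 24.1% had an unadjusted p under 0.05, which are the shares against which the counts of this and the next lists stand. With the replicate block 1 was called higher under knockdown. Of the MAP kinase cascades 0 of 23 were called under overexpression, with 3 higher and 1 lower at an unadjusted p under 0.05. Under knockdown 1 of 25 was called: RPS6KA2, an ERK-activated ribosomal S6 kinase, was at 3.14, 3.19 and 3.57 in shRNA libraries, against 0.330, 0.220 and 0.410 in scramble libraries (log2 difference 1.70, SE 0.15, limma adjusted p = 0.00136). RPS6KA2 passed the filter through the shRNA libraries alone, since all its scramble values were under 1. It was called in all 13 alternatives that tested it, among them the fit with no filter (limma adjusted p = 0.00682). The stricter filter left it out, so that alternative says nothing about it. With the replicate block 2 kinase genes were called higher and 1 lower.

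Among genes that ERK induces and that damp it, 0 of 10 were called under overexpression, with 1 higher at an unadjusted p under 0.05. Under knockdown 1 of 10 was called: DUSP5, a nuclear ERK phosphatase, was at 28.3, 58.5 and 56.6 in shRNA libraries, against 102.6, 115 and 111 in scramble libraries (log2 difference -1.25, SE 0.24, limma adjusted p = 0.0243). All shRNA libraries were below all scramble libraries, shRNA replicate 1 farthest. The call was lost without any of the scramble replicates (adjusted p 0.0754 to 0.101) and with no filter (0.0553). With the block 1 gene of this list was called higher and 1 lower.

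Of the factors of AU-rich mRNA decay, ZFP36L2, given above, was the 1 call among 15 under overexpression. Under knockdown 1 of 16 was called: HNRNPD (AUF1), which binds AU-rich elements, was at 201, 222 and 216 in shRNA libraries, against 342, 297 and 298 in scramble libraries (log2 difference -0.55, SE 0.12, limma adjusted p = 0.0346). That call was lost with no filter and without any single library other than shRNA replicate 1. Of the heat shock genes 4 of 15 were called lower under knockdown and 0 higher, against 1.28% and 4.24% of all genes: HSPB1, DNAJA1, HSP90AA1 and HSP90AB1, with log2 differences of -0.75, -0.58, -0.65 and -0.58 (limma adjusted p = 0.0161, 0.0310, 0.0413 and 0.0473). With the block 7 were called lower and 1 higher, against 3.68% and 8.20%. Each of the 4 calls was lost without scramble replicate 1, scramble replicate 2 or shRNA replicate 3. NF-kB response genes gave 0 calls of 12 under overexpression and 0 of 11 under knockdown, with 0 and 1 at an unadjusted p under 0.05, and 1 higher under knockdown with the block.

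The genes whose levels over all 11 libraries were most like the mean profile of the 10 were found by the root mean square difference of log2(value + 1), each library taken relative to the control mean of its own table. Over 7917 candidates the median difference was 0.791. The 6 nearest were ITM2C (0.316), RPRM (0.332), ZFP36L2 (0.333), CEBPD (0.348), CYB5R3 (0.351) and CD82 (0.353). Each of the 10 genes lay farther from their own mean, from 0.465 (JUNB) to 1.22 (FOS) and 1.31 (DUSP2, whose 0 enters the mean). The nearest genes are thus like the mean and not like any single gene of the 10. ITM2C and RPRM had log2 differences of 1.21 and 1.23 under overexpression, below those of FOS, FOSB, JUN, EGR1 and DUSP1. Of the 6 nearest, ZFP36L2 and CEBPD are themselves immediate early genes of the wider list. ITM2C, a membrane protein abundant in plasma cells, averaged 324 ± 12.2 in overexpression libraries (SD, n = 2) and 141 ± 30.2 in empty vector libraries (n = 3), and 103 ± 19.8 in shRNA and 115 ± 5.16 in scramble libraries (n = 3 each). RPRM averaged 20.1 ± 1.59 in overexpression libraries (SD, n = 2) and 8.25 ± 2.94 in empty vector libraries (n = 3), and 7.38 ± 1.53 in shRNA and 9.55 ± 2.72 in scramble libraries (n = 3 each). Both were higher in the overexpression than in the empty vector libraries, with limma adjusted p = 0.199 for ITM2C and 0.316 for RPRM, neither past the threshold. The likeness is a description over libraries that share their tables.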

How the data were processed

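RNA-seq of ARP1 cells was deposited as 2 tables, 1 for overexpression and 1 for knockdown. The authors' values are recorded here as FPKM, as deposited after their own scaling. No header names the unit, so FPKM, RPKM and TPM cannot be told apart. Each table also holds the authors' own p-value per gene, per the file headers, with no method stated. TopHat and hg19 are named in the submitters' processing notes; versions, the quantifier and strand handling are not stated. The tables carry no counts. In the overexpression table, low values were not whole multiples of 1 read's worth. No more than 4 of the 12 to 52 low genes compared in any pair of its libraries shared 1 ratio. No such check was made for the knockdown table. Depth and counting error are unknown for both, and no interval or floor was computed. Of the knockdown symbols, 24 had become dates and were left unmatched.

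Each table was fitted alone, because they were normalised separately. A gene was tested if its value reached 1 in 2 or more libraries (overexpression) or 3 or more (knockdown), on log2(value + 1) with limma-trend and robust variances (limma 3.58.1, R 4.3.3), two-sided, Benjamini-Hochberg adjusted over all genes tested, threshold 0.05. The fit was tested on simulated data. The other steps and the plots used Python 3.11.15 (matplotlib 3.10.9, numpy 2.4.6, pandas 2.3.3). Groups came from the sample titles. The 10 genes and all lists were chosen with earlier results of these data known.

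Named from each other list were called genes whose groups did not overlap, up to 4 per list and comparison by adjusted p. From the other immediate early genes, up to 4 of the largest such differences, called or not, were named too, and the 6 genes nearest to the mean profile. Other genes named in the text were named after their values were seen.

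Both knockdown groups carry the replicate numbers 1 to 3. Deviations from group means correlated at 0.341, 0.271 and 0.273 between same-numbered libraries and at -0.277 to 0.0935 between others. Because deviations cancel out within a group, positive values for same-numbered libraries bring negative ones among the others. The numbers were taken to pair the libraries, a choice that comes from the data, as no label states it. Fits with the block rest on that choice. Promoters came from RefSeq tables (GRCh38.p14) and exons and UTRs from GENCODE 29 (GRCh38), with all 10 genes matched by symbol in both. These serve for names, sequence and structure only, since the tables carry no coordinates and were made on hg19.

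The alternatives tried were each library left out in turn, pseudocounts of 0.1 and 0.5, a filter at 5 or none, median-of-ratios scaling, quantile normalisation, plain limma with neither trend nor robust variances, genes listed at 0 left out (overexpression) and the replicate number as a block (knockdown).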

Additional observations from a re-analysis of the deposited data

How the results depend on the processing

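Under every alternative run the sign of the log2 difference under overexpression stayed positive for FOS (4.0 to 5.12), FOSB (2.52 to 3.31), JUN (2.63 to 3.52), EGR1 (2.48 to 3.04), DUSP1 (2.74 to 3.28), JUNB, IER2 and ZFP36, while that of KLF6 ranged from -0.15 to 0.40. Under knockdown FOS, JUNB, EGR1, KLF6, DUSP2 and ZFP36 stayed negative, and FOSB, JUN, DUSP1 and IER2 took both signs. There a filter at 5 left out FOS and FOSB. Calls moved more than sizes, and the cause was not tested. Of all genes tested under overexpression 94 were called (63 higher, 31 lower). With a filter at 5 it was 36 (17 higher, 19 lower) and with a pseudocount of 0.1 it was 61 (33 higher, 28 lower). With genes listed at 0 left out it was 0 by limma, with 1201 at an unadjusted p under 0.05. Leaving out each library gave 107 to 350, the highest without empty vector replicate 5, and the calls were mostly lower without overexpression replicate 1 (50 higher, 98 lower) or 2 (54 higher, 77 lower). Of the 10 immediate early genes 1 was called. That became 0 with no filter, a filter at 5, a pseudocount of 0.1 or 0.5, or genes listed at 0 left out, and 0 to 3 with each library left out. Their median log2 difference of 1.76 became 2.67 with genes listed at 0 left out, which removes DUSP2. Of the other immediate early genes 1 was called, against 0 under quantile normalisation, 0 with genes listed at 0 left out, and 0 to 4 with each library left out. Quantile normalisation shifted the median of all genes by -0.13. Under knockdown 601 genes were called (462 higher, 139 lower), 269 with no filter, 1295 with the replicate block, and 54 to 629 with each library left out, the lowest without scramble replicate 1. Quantile normalisation gave 377 higher and 206 lower. Of the 10 genes 0 were called, 1 (FOS) with the block, and 0 to 1 with each library left out. Of the other immediate early genes 4 were called, 9 with the block, and 0 to 6 with each library left out. No paired analysis was possible for overexpression because its groups share no replicate number. Where a group is left with 1 library, that library is assumed to vary like the others. The depth behind low values such as FOS under knockdown is unknown.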
